A study of Bos taurus with 38 samples.

Results

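The 10 cumulus cell libraries of BCB negative cattle complexes were divided by how many counts they held, and the 5 libraries with the lowest totals were set against the 5 with the highest. A cumulus-oocyte complex is an oocyte with the somatic cells that surround it, and BCB negative means that the oocyte did not keep the blue of the dye brilliant cresyl blue. Oocytes still in growth clear the dye through high activity of glucose-6-phosphate dehydrogenase, whereas fully grown, BCB positive oocytes stay blue. Each library holds the cumulus cells of 1 complex (complexes 6, 65, 66, 68 and 86 to 91), the oocyte of the same complex was sequenced separately, and 9 BCB positive complexes were treated in the same way, so that these 10 libraries are part of 38 in all. All complexes, BCB negative and positive alike, were collected from follicles and exposed to the dye, and the cumulus cells were loosened with trypsin and pipetting before RNA extraction and amplification from oligo-dT primed cDNA. The labels do not say which complexes shared an animal, so the p-values below measure the spread between complexes.

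These sets, called low-count and high-count here, were chosen by the summed raw counts alone, and these totals are described without a test. The low-count libraries were those of complexes 68 (1103200 counts), 66 (1624128), 65 (1650795), 6 (1772144) and 91 (2164674). The high-count libraries were those of complexes 86 (2339868 counts), 87 (3855234), 88 (4539428), 90 (4634299) and 89 (8013318). The boundary between the sets was narrow, since complex 91 lay just inside the low-count set and complex 86 just outside it. All 5 high-count libraries belong to the run of complex numbers from 86 to 91, and complex 91 was the only low-count library of that run, while complexes 65, 66 and 68 came from a run from 65 to 74 and complex 6 from a run from 6 to 24. The total and the run of numbers therefore cannot be told apart in most of the comparison, and values within the run from 86 to 91 rest on 1 low-count library. The oocyte libraries of the same complexes held 9389803 to 24959834 counts in the low-count set and 19195112 to 29810354 in the high-count set.

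Cumulus cells are granulosa cells that stay attached to the oocyte. They make follistatin (FST) and inhibin subunits, carry the receptor for follicle-stimulating hormone (FSHR), and reach the oocyte through fine cell projections that end in gap junctions, through which metabolites and signals pass. Fewer cells and less RNA per cell cannot be told apart in bulk samples, and a deposited total also depends on amplification, on how deeply a library was sequenced and on the removal of duplicates, none of which was tested here. Most mitochondrial transcripts are read from the small circular genome of the mitochondrion, which codes for 13 proteins of the respiratory chain, and zona pellucida proteins such as ZP2 and ZP3 form the coat that the growing oocyte lays down.

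The share of counts on the most abundant genes was compared first. The 100 most abundant genes took 65.9% of the counts in complex 68, 53.7% in complex 65, 52.6% in complex 91, 45.7% in complex 6 and 44.7% in complex 66. In the high-count libraries the same share was 48.6% in complex 86, 37.9% in complex 87, 36.5% in complex 90, 30.6% in complex 88 and 25.9% in complex 89, so that the sets overlapped only through complex 86. The means were 52.5% ± 8.50 (SD, n = 5) and 35.9% ± 8.56 (SD, n = 5), against 25.7% ± 2.77 (SD, n = 9) in BCB positive libraries. The difference of 16.6 percentage points had p = 0.0238 (two-sided exact permutation test, with a smallest possible p of 0.00794 for 5 against 5) and p = 0.0595 after Benjamini-Hochberg adjustment over 5 library values. Within complexes 86 to 91 the 1 low-count library stood 16.7 points above the mean of the others. With the 13 mitochondrially encoded genes and the 2 most abundant identifiers left out of both the genes and the counts, an alternative chosen after the values were seen, the share was 24.9% to 27.8% in the low-count set and 23.6% to 25.9% in the high-count set (difference 1.28 points, exact permutation p = 0.111).

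The 13 mitochondrially encoded protein genes took 17.4% of the counts in complex 68, 13.5% in complex 91, 10.2% in complex 65, 8.66% in complex 6 and 6.52% in complex 66. The shares of the high-count libraries were 11.2% in complex 86, 6.06% in complex 90, 5.67% in complex 87, 2.06% in complex 88 and 1.17% in complex 89. Complex 86, whose total was nearest to the low-count set, thus lay among the low-count libraries, and the other 4 high-count libraries lay below all 5 of them. The mean difference was 6.02 percentage points (exact permutation p = 0.0635, adjusted 0.0794), which did not exceed the spread between complexes. It was 6.03 points after every library had been thinned at random to 1103200 counts, a step that leaves expected shares unchanged. BCB positive libraries held 1.66% ± 0.696 (SD, n = 9).

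**Figure D1:**
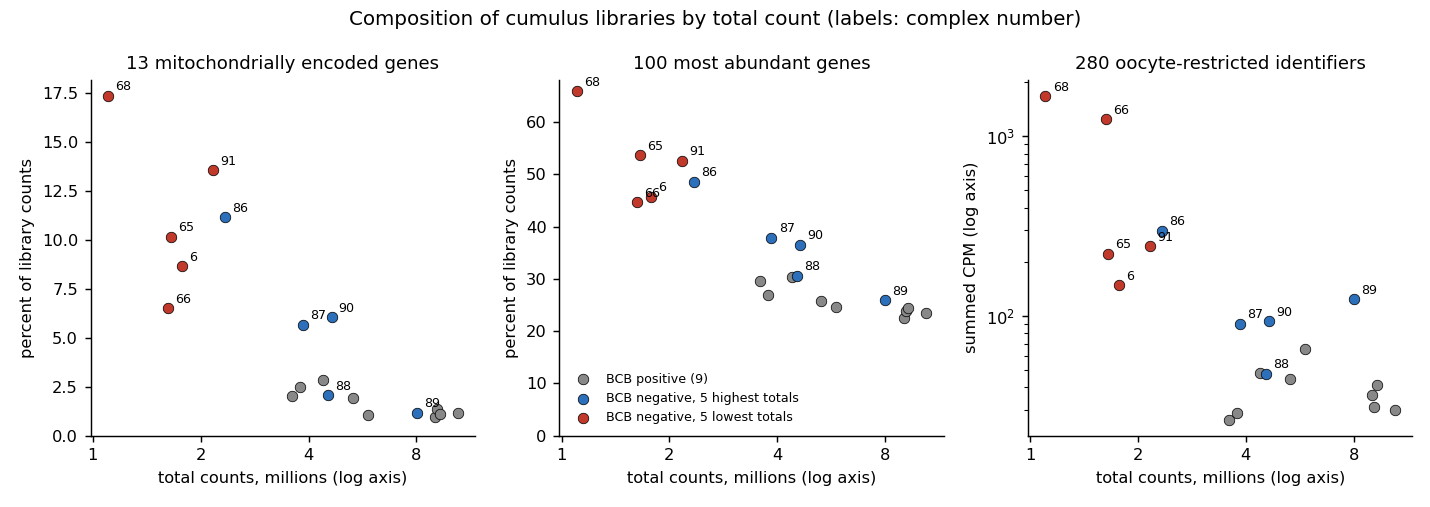
Each point is 1 cumulus library placed by its total count on a log axis, against the percent of counts on the 13 mitochondrially encoded genes, the percent on the 100 most abundant genes, and the summed CPM, before TMM scaling, of 280 oocyte-restricted identifiers on a log axis. Red points are the 5 low-count and blue points the 5 high-count BCB negative libraries, with their complex numbers, and grey points the 9 BCB positive libraries; complex 86 lies with the red points in all 3 panels, and complexes 66 and 68 stand above all others in the last.

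Further abundant transcripts ran alongside. ENSBTAG00000043570, an identifier without a symbol here, took 13.8% to 26.9% of the counts in low-count and 2.39% to 15.8% in high-count libraries, and ENSBTAG00000043567 took 4.94% to 11.1% and 1.00% to 5.68%. Together with the 13 genes these identifiers accounted for 27.3% to 55.3% of a low-count library and 4.57% to 32.6% of a high-count library. Cytosolic ribosomal protein genes, of which 15 of 78 could be matched to an identifier, held 1.25% ± 0.272 (SD, n = 5) of the counts in the low-count set and 1.87% ± 0.295 (SD, n = 5) in the high-count set. The share fell by 0.615 percentage points in the low-count set, which passed the test (exact permutation p = 0.00794, the smallest that 5 against 5 can give, adjusted 0.0397). As a share of the counts outside the 13 mitochondrial genes and the 2 abundant identifiers, an alternative chosen after the values were seen, the low-count set was lower by a mean of -0.249 points with exact permutation p = 0.103, so the call does not hold once the abundant transcripts are set aside. After thinning, genes with at least 1 count numbered 14414 to 17428 in the low-count set and 14698 to 15837 in the high-count set (difference 888, exact permutation p = 0.135, adjusted 0.135). Without complex 68 the difference was 502.5, and the totals matched here include the unequal shares of the abundant identifiers.

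The mitochondrial transcripts were then taken gene by gene. COX1, a core subunit of cytochrome c oxidase, stood at 51413 normalized CPM in complex 68, 42144 in complex 91, 37469 in complex 65, 25942 in complex 6 and 10648 in complex 66, where CPM is a gene's count per 1e6 counts of its library, scaled by trimmed mean of M values (TMM) over the 19 cumulus libraries. In the high-count libraries it stood at 20906 in complex 86, 17473 in complex 87, 15451 in complex 90, 4544 in complex 88 and 3123 in complex 89. The sets overlapped because complex 66 lay below 3 of the high-count libraries. Its log2 fold change, low minus high, was 1.44 ± 0.55 (SE) with edgeR's quasi-likelihood test (p = 0.0247, FDR 0.760). ND3, a subunit of complex I, had the largest estimate of the 13, 1.83 ± 0.74 (SE, p = 0.0316, FDR 0.760). It reached 10496 CPM in complex 68 and 4669 in complex 65, but only 2114 in complex 66 and 1794 in complex 6, below the 3445 CPM of complex 86.

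All 13 genes were higher in the low-count set, by log2 fold changes from 1.31 to 1.83 with a median of 1.51, where the median over all 12184 genes tested was -0.01. None of the 13 passed an FDR of 0.01. An unadjusted p under 0.05 was reached by 9 of them, by 0 without complex 68 or with the run of complex numbers as a covariate, by 1 to 3 without complex 87, 88, 90 or 91, and by 13 without complex 86. The cytochrome b gene CYTB (1.61 ± 0.71 SE) and the ATP synthase genes ATP6 (1.48 ± 0.64 SE) and ATP8 (1.68 ± 0.72 SE) moved by like amounts. With complex 91 as the only low-count library of the run from 86 to 91, the median of the 13 was 1.67. Without complex 68 it was 1.19, and without complex 86 it was 2.25.

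**Figure D2:**
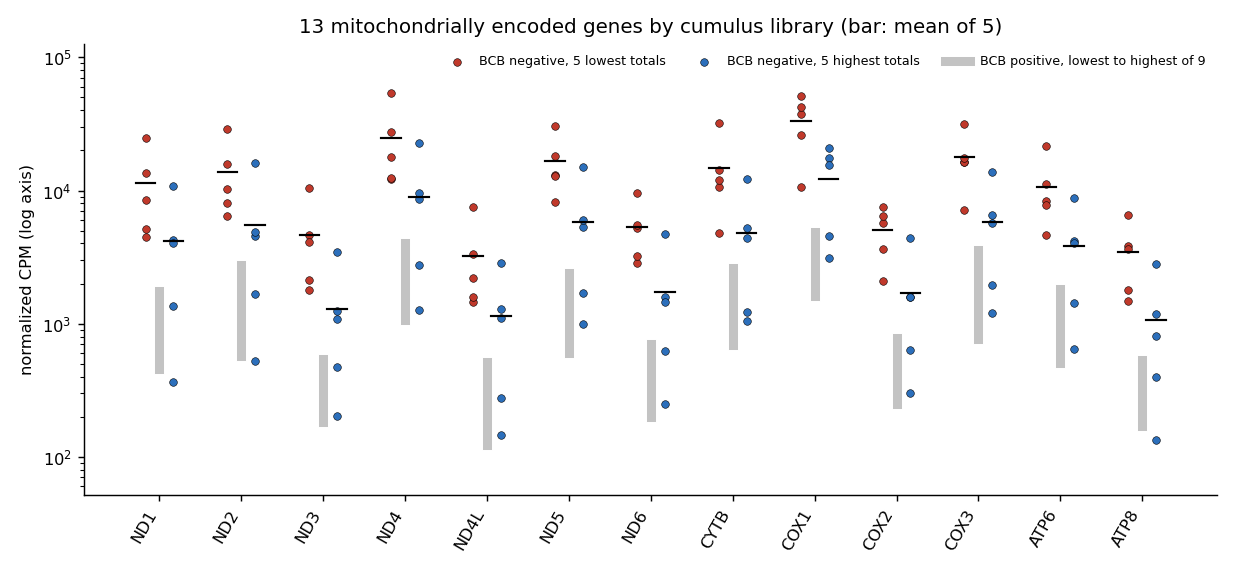
Normalized CPM on a log axis of each mitochondrially encoded protein gene in the 5 low-count (red) and 5 high-count (blue) BCB negative cumulus libraries, with a bar at the mean of 5 and a grey band from the lowest to the highest of 9 BCB positive libraries. For each gene the mean of the low-count set lies above that of the high-count set, and the points of the sets overlap.

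Across all genes, no transcript differed between low-count and high-count libraries at an FDR of 0.01 by edgeR's quasi-likelihood test (0 of 12184, that is 0%, the lowest FDR being 0.653). An unadjusted p under 0.05 was reached by 774 genes, or 6.35%, 448 of them higher and 326 lower in the low-count set. With library totals alone in place of TMM the count was 2329, with 0 past the FDR threshold, and the median of all genes moved to -0.43. DESeq2 called 8 genes on the same counts, all higher in the low-count set. Of these 8, 4 belong to the 280 oocyte-restricted identifiers described below, which passed the filter on low levels through the libraries in which they were high. Without overlap between the 5 and 5 libraries, 55 genes (0.451% of those tested) were higher in the low-count set and 74 (0.607%) were lower. The 55 had a median level of 12.3 CPM and the 74 a median of 31.9 CPM. The genes described next are the 10 genes with a symbol and the lowest p in each direction. None of them passed the FDR threshold, so their values describe these libraries only.

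HOXC9, a homeobox factor that sets position along the body axis, had the lowest p of the named genes. Its level was 51.1 CPM in complex 66, 19.8 in complex 68, 16.5 in complex 6, 14.4 in complex 91 and 11.2 in complex 65, against 7.33 in complex 87, 4.25 in complex 86, 3.72 in complex 90, 3.26 in complex 89 and 2.03 in complex 88. The sets did not overlap, with a log2 fold change of 2.49 ± 0.48 (SE, edgeR p = 0.000107, FDR 0.653), and DESeq2 called the gene (FDR 0.00137). BCB positive libraries ranged from 4.31 to 17.4 CPM, a range that holds 3 of the 5 low-count values.

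ZP2 held 43.0 CPM in complex 68 and 18.8 in complex 66, and 5.62 in complex 91, 5.16 in complex 65 and 2.15 in complex 6. In the high-count set it held 2.65 CPM in complex 86, 0.657 in complex 90 and 0.109 in complex 89, and no count in complexes 87 and 88, where 0 counts allow up to 0.778 and 0.661 CPM by counting error alone (3 counts of the library, before TMM scaling). The counts behind these levels were 26, 28, 9, 6 and 3 in the low-count set and 5, 3 and 1 in complexes 86, 90 and 89, and the gene entered the test through the libraries in which it was high. Its values are therefore given as a description, without the test.

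The other 8 genes on the higher side were DEPDC7, CECR2, ZBTB7A, ZBTB7C, CLSPN, TANC1, ADAMTS12 and CENPJ, with log2 fold changes from 0.70 (TANC1) to 3.09 (ADAMTS12). DEPDC7 and ADAMTS12 did not stay above 2 CPM before TMM scaling in all 10 libraries. They entered the test through the libraries in which they were high, so their folds are given as a description. CECR2, a chromatin remodelling subunit, stood between 33.1 and 39.4 CPM in 4 low-count libraries and at 5.16 CPM in complex 65, and between 4.25 and 11.8 CPM in the high-count set. ZBTB7A, a zinc finger repressor, did not overlap, at 66.2 to 147 CPM against 31.1 to 62.4 CPM. CENPJ, which builds centrioles, was at 43.1 to 87.4 CPM against 32.8 to 37.7 CPM, again without overlap. With the run of complex numbers as a covariate the log2 fold change fell from 1.05 to 0.58 for ZBTB7A, from 0.77 to 0.33 for CENPJ, from 2.096 to 0.951 for ZBTB7C and from 3.09 to 1.71 for ADAMTS12. Levels in the oocyte libraries were far above those of cumulus cells for several of them, with medians over 19 oocytes of 1904 CPM for ZP2, 839 for CECR2, 575 for DEPDC7, 286 for CLSPN and 271 for CENPJ, but of 9.29 for ZBTB7A and 0.673 for ZBTB7C. Of all genes tested over the 19 cumulus libraries, 45.7% were higher in oocytes than in BCB positive cumulus cells. The part of oocyte transcripts in the higher genes named here was not tested.

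The 10 named genes lower in the low-count set were SLC36A4, WIPF3, CYBC1, ZNF277, SHISA5, LRP10, IFI27L2, EML3, PRMT6 and PLD3, with log2 fold changes from -1.91 to -0.78. With the run as a covariate the value of PLD3, a lysosomal protein, moved from -0.88 to -0.49, the only one of the 10 to move by over 1.5 times. SLC36A4, an amino acid transporter, was at 13.2 CPM in complex 68, 8.74 in complex 66, 10.3 in complex 65, 10.7 in complex 6 and 14.4 in complex 91. It was at 27.1 CPM in complex 86, 98.6 in complex 87, 38.4 in complex 88, 28.5 in complex 90 and 24.4 in complex 89. The sets did not overlap (log2 fold change -1.91 ± 0.40 SE, edgeR p = 0.000246, FDR 0.741), and the BCB positive range of 12.2 to 21.0 CPM overlapped the low-count set and lay below the high-count set. CYBC1, a chaperone of the phagocyte NADPH oxidase, ranged from 3.31 to 9.45 CPM in the low-count set and from 13.5 to 22.8 CPM in the high-count set. EML3, a microtubule-binding protein, ranged from 1.65 to 6.25 CPM and from 10.3 to 13.7 CPM. Neither CYBC1 nor EML3 stayed above 2 CPM before TMM scaling in all 10 libraries, so their lowest values rest on few counts. For CYBC1 and EML3 it was the high-count set whose values lay within the BCB positive ranges of 13.3 to 27.3 and 9.39 to 16.8 CPM.

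**Figure D3:**
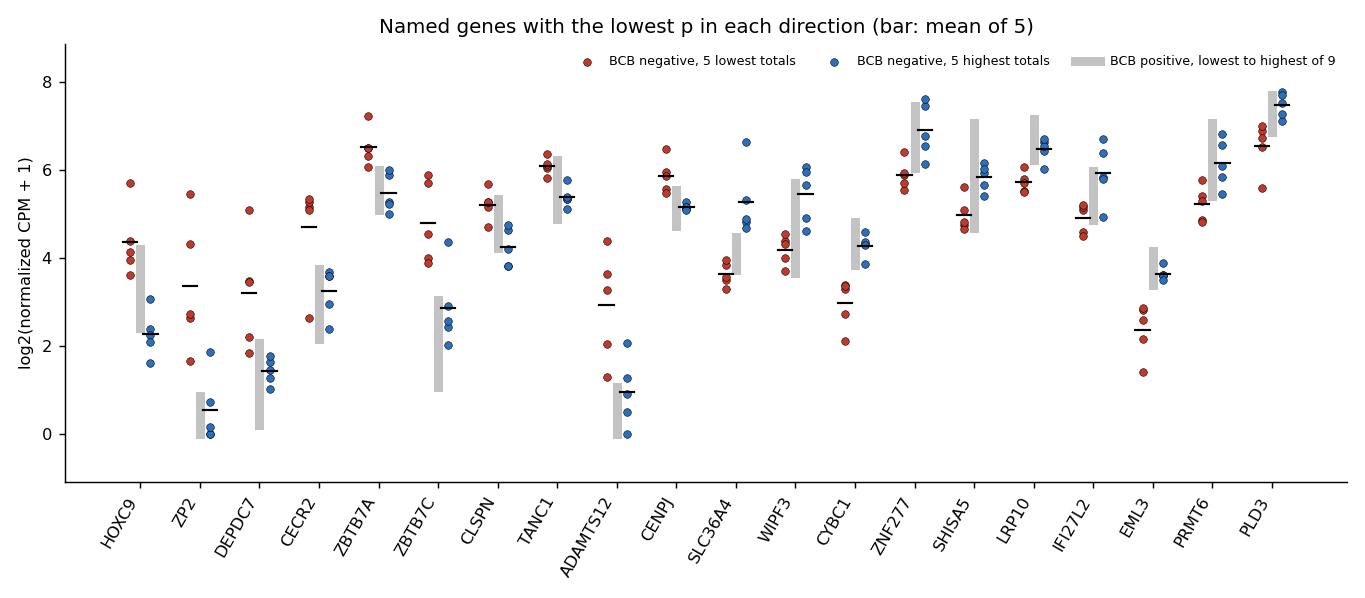
The log2(normalized CPM + 1) of 20 named genes in the 5 low-count (red) and 5 high-count (blue) BCB negative cumulus libraries, with a bar at the mean of 5 and a grey band from the lowest to the highest of 9 BCB positive libraries. The first 10 genes are higher and the last 10 lower in the low-count set. HOXC9, DEPDC7, ZBTB7A, TANC1 and CENPJ of the former and SLC36A4, WIPF3, CYBC1, EML3 and PLD3 of the latter do not overlap. The lowest values of CYBC1 and EML3 rest on few counts.

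Transcripts that are abundant in oocytes were detected in the cumulus libraries at unequal levels. Of 20 oocyte markers only 4 could be matched to an identifier, and their summed level, TMM-scaled as above, was 129 CPM in complex 68, 86.7 in complex 66, 14.4 in complex 91, 11.2 in complex 65 and 5.73 in complex 6, against 2.24 to 12.7 CPM in the high-count set. Complexes 66 and 68 were the highest on either scale, but before TMM scaling their order turned (79.4 CPM in complex 66 and 70.7 in complex 68). The mean difference was 29.8 CPM before TMM scaling (exact permutation p = 0.0635, adjusted 0.0794) and 44.2 CPM after it (exact permutation p = 0.0317, unadjusted, an alternative chosen after the values were seen). ZP3 gave 78 counts in complex 66 and 27 in complex 68, but 7, 3 and 1 in complexes 65, 91 and 6, and 1 to 7 in the high-count set. DAZL, a germ cell RNA-binding protein, stayed at or below 3.31 TMM-scaled CPM in all 10 libraries. A wider list was taken from the BCB positive complexes after these values were seen, and it is described without a test. It holds the 280 identifiers with a mean above 50 CPM in BCB positive oocytes and a level below 1 CPM in every BCB positive cumulus library, so that the low BCB positive cumulus values are fixed by the choice.

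Before TMM scaling the 280 identifiers together took 1677 CPM in complex 68 and 1241 CPM in complex 66. The other low-count libraries were at 244 CPM (complex 91), 222 CPM (complex 65) and 148 CPM (complex 6), and the high-count libraries at 298 CPM (complex 86), 124 CPM (complex 89), 93.2 CPM (complex 90), 90.5 CPM (complex 87) and 47.6 CPM (complex 88). Only complexes 66 and 68 thus stood apart, and the remaining low-count libraries overlapped with complex 86, also with TMM scaling (3058 and 1354 CPM in complexes 68 and 66, 188 to 330 CPM in the other low-count libraries and 370 CPM in complex 86). In the oocyte of the same complex the identifiers summed to 61051 CPM for complex 66 and 60596 CPM for complex 68, so that the cumulus level came to 2.03% and 2.77% of it, against 0.0840% to 0.493% in the other 8 BCB negative complexes. At an equal 1103200 counts, 257 of the 280 were detected in complex 68 and 234 in complex 66, 97 to 130 in the other low-count libraries and 43 to 121 in the high-count set. Across the 280 identifiers the rank correlation of cumulus and own oocyte counts was 0.57 in complex 68 and 0.62 in complex 66, and 0.01 to 0.36 in the other 8. These identifiers are not independent replicates, and the lower values rest on few counts. The part of oocyte transcripts in the gene comparison was not tested.

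Genes of cumulus identity were found in both sets. Of 24 granulosa and cumulus markers 19 were matched and tested, 0 passed the threshold, 11 were higher and 8 lower in the low-count set, and their median log2 fold change was 0.06. FSHR was at 170 to 270 CPM in the low-count set and 181 to 325 CPM in the high-count set. FST was at 2008 to 5640 CPM in the low-count set and 2193 to 4794 CPM in the high-count set. CYP19A1, which makes oestradiol, had a log2 fold change of -0.17 ± 0.77 (SE). Of the markers of other somatic cells, 1 of 10 for theca and stroma (COL1A2), 3 of 9 for endothelium and blood (VWF, TEK and HBA) and 0 of 11 for immune cells had an identifier. HBA, a haemoglobin gene, ran from 1.69 to 190 CPM in the low-count set, from 3.08 to 129 CPM in the high-count set and from 0.265 to 573 CPM in BCB positive libraries, before TMM scaling. On the same scale TEK, an endothelial receptor, was at 9.97 CPM in complex 68, 3.95 in complex 6, 3.08 in complex 66, 1.82 in complex 65 and 0.924 in complex 91, against 0.374 to 1.73 CPM in the high-count set. VWF was at 16.3 CPM in complex 68 and 8.004 in complex 66, at 0.462 to 2.82 CPM in the other low-count libraries, at 0.647 to 2.59 CPM in the high-count set and at 0.671 to 5.82 CPM in BCB positive libraries. The medians of both in oocytes were higher, 78.5 CPM for TEK and 45.5 CPM for VWF, and the part of other cell types in the results was not tested. COL1A2 ran from 0.92 to 19.0 CPM in the low-count set and from 0.22 to 9.71 CPM in the high-count set, on the same scale.

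No other gene list held a member past the FDR threshold. The 14 measured nuclear respiratory chain subunits of 43 had a median log2 fold change of -0.13, in contrast to the mitochondrially encoded subunits, and the 14 measured glycolysis genes of 21 had a median of -0.15. The 12 measured cell division genes of 30 were all higher in the low-count set, with a median of 0.42 and 1 unadjusted p under 0.05, that of the mitotic kinase PLK1. With log10 total in place of the split 8 of the 12 were higher at lower totals, with a median of 0.40 per 10-fold lower total and 0 past the threshold, and in BCB positive libraries 1 of the 12 was, with a median of -1.40. The 15 measured immediate early genes of 27 had a median of 0.60, with 12 higher. With log10 total 9 of these 15 were higher at lower totals, with a median of 0.28, and in BCB positive libraries 2 of 16 were, with a median of -1.93. The 4 measured genes of cumulus expansion of 17 were all lower, with a median of -0.40.

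Heat shock chaperones were lower in the low-count set for 8 of 9 measured genes of 17, with a median log2 fold change of -0.24 and 0 past the threshold. HSPA1A, an inducible chaperone whose reads may be shared with near-identical copies, was at 131 CPM in complex 68, 57.1 in complex 66, 66.2 in complex 65, 127 in complex 6 and 951 in complex 91. In the high-count set it was at 604 CPM in complex 86, 664 in complex 88, 1212 in complex 89, 2125 in complex 87 and 4046 in complex 90. The 1 low-count library of the run from 86 to 91 was within the range of the high-count set, and the 4 from other runs were below it, near the BCB positive median of 106 CPM. The log2 fold change was -2.69 ± 0.91 (SE, edgeR p = 0.0138, FDR 0.760). The co-chaperone DNAJB1, with HSPA1A chosen after its values were seen, was at 592 CPM in complex 91, 57.8 to 205 CPM in the other low-count libraries and 178 to 1472 CPM in the high-count set, so that its sets overlapped also without complex 91.

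**Figure D4:**
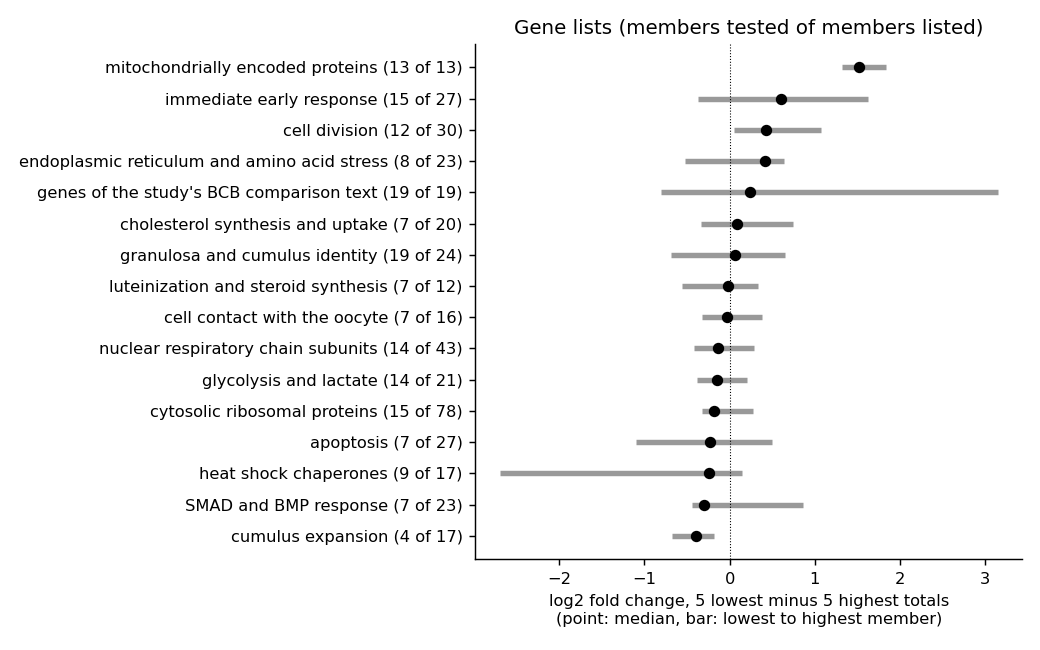
Each row is a gene list with the number of members tested of those listed, placed by the log2 fold change of low-count minus high-count BCB negative cumulus libraries; points are medians and bars run from the lowest to the highest member. Of the 16 lists drawn the mitochondrially encoded genes have the highest median, 1.51, and the medians of the others drawn run from -0.40 to 0.60; the oocyte markers, with 2 members tested and a median of 3.49, are not drawn.

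When the total count was used as a continuous measure in place of the split, 42 of 12184 genes (0.345%) passed the FDR threshold, all of them higher at lower totals. Among the 42 were 6 of the 280 oocyte-restricted identifiers, of which 10 had passed the filter on low levels; they lie below 1 CPM in BCB positive cumulus by choice and passed through the libraries in which they were high, and their part in the result was not tested. Of the 42, 16 had a symbol, among them ND3 (5.76 ± 0.80 SE on the log2 scale per 10-fold lower total, FDR 0.00251), ND6 (5.49 ± 0.79, FDR 0.00314) and COX3 (4.92 ± 0.78, FDR 0.00742) of the mitochondrial genes. ADAMTS5, a protease that cleaves the matrix proteoglycan versican, had the lowest FDR of the 16 (6.48 ± 0.67 SE, FDR 0.000315) and was named after its value was seen. It was at 121 CPM in complex 68, 72.2 in complex 65, 41.0 in complex 66, 32.5 in complex 91 and 26.5 in complex 6. In the high-count set it was at 43.0 CPM in complex 86, 12.4 in complex 87, 9.63 in complex 90, 7.52 in complex 88 and 1.52 in complex 89. Apart from complex 86 the low-count libraries lay above the high-count libraries, and BCB positive libraries ranged from 0.908 to 9.74 CPM.

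The 9 BCB positive libraries, whose totals ran from 3585944 to 10430148, were not used for the split and gave a separate look at the same measure. No gene passed the threshold for a slope on log10 total (0 of 12274 by edgeR, with 1465 unadjusted p under 0.05, and 16 by DESeq2, 3 of them mitochondrial). The count of 1465 became 471 in complexes 69 to 74 alone. Leaving out 1 library gave from 568 (without complex 17) to 2227 (without complex 73), with 0 genes past the threshold. All 13 mitochondrial genes had higher levels at lower totals in the 9 BCB positive libraries too, with unadjusted p under 0.05 for each. Their median was 3.01 on the log2 scale per 10-fold lower total, with slopes from 2.31 to 4.19, beside -0.04 over all genes tested. Within complexes 69 to 74 alone the median was 3.76. COX3 had the steepest slope, 4.19 ± 0.76 (SE, edgeR unadjusted p = 0.000122). Of the 42 genes above, 25 were tested in BCB positive libraries and 25 had the same sign, against 54.8% of 11815 genes in all; of the 686 tested genes with an unadjusted p under 0.05 in the split, 59.6% had the same sign, against 53.9% of all. Slopes of BCB negative and BCB positive libraries were also compared in 1 fit, chosen after these values were seen, in which 0 of 13060 genes differed at an FDR of 0.01 and 810 had an unadjusted p under 0.05.

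Each set was then set against the 9 BCB positive libraries in 1 edgeR fit over the 19 cumulus libraries. No BCB positive complex belongs to the run from 86 to 91, so for the high-count set stain and run cannot be told apart. The low-count totals, at most 2164674, all lay below the BCB positive totals, at least 3585944. For the low-count set stain and total therefore cannot be told apart. Against the low-count set 200 of 13060 genes passed an FDR of 0.01, 189 of them (1.45%) higher and 11 (0.0842%) lower in the low-count set. Against the high-count set 2 genes (0.0153%) were higher and 0 (0%) lower. The 189 held 9 of the 10 oocyte-restricted identifiers that passed the filter and the 2 genes called against the high-count set held 0, counts that the choice of the identifiers in BCB positive libraries favours and whose part in the result was not tested. The sets share the BCB positive libraries as controls, and in the same fit 0 genes differed between the sets themselves, so the unequal counts do not show that the sets differ. With all libraries thinned to 1103200 counts the counts were 162 and 3. Within the run from 65 to 74, where 3 low-count libraries can be set against 6 BCB positive ones, 128 genes passed, and no such value exists for the high-count set. Scaling by library totals alone moved the median of all genes by -0.70 in the low-count set, and the calls there became 182 higher and 4061 lower.

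DKK3, a secreted protein of the Dickkopf family, and 1 identifier without a symbol were the genes higher in the high-count set than in BCB positive libraries. DKK3 was at 4.96 CPM in complex 68, 3.36 in complex 66, 32.7 in complex 65, 16.5 in complex 6 and 13.8 in complex 91, and at 12.96 to 36.5 CPM in the high-count set, against 0.18 to 2.31 CPM in BCB positive libraries. All 10 BCB negative libraries therefore lay above the BCB positive range. In complexes 68 and 66 the level rests on few counts, since 3 counts there are 2.72 and 1.85 CPM before TMM scaling. Counting error alone can bring DKK3 in these libraries into the BCB positive range. Its log2 fold change was 4.13 ± 0.47 (SE, FDR 7.47e-05) in the low-count set and 4.93 ± 0.45 (SE, FDR 2.2e-06) in the high-count set. The 13 mitochondrial genes all passed the threshold as higher in the low-count set, beside 1.45% of all genes. Their log2 fold changes ran from 3.22 to 3.99 with a median of 3.59, where the median of all genes was 0.00. Against the high-count set their median was 2.13 and none passed with edgeR. Each had an unadjusted p under 0.05, as did 1787 of all 13060 genes (13.7%). DESeq2 called 84 of all genes, among them 8 of the 13. Of these, COX1 had the lowest FDR in the high-count set (0.0388, log2 fold change 2.13 ± 0.40 SE).

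Transcription factors and signalling genes that the study discussed for BCB staining were chosen on these same samples, and their directions are not independent evidence. Of 19 such genes 11 rose in the low-count set against BCB positive libraries and 0 fell, with a median log2 fold change of 2.59, beside 1.45% and 0.0842% of all genes tested and a median of 0.00. In the high-count set 1, DKK3, rose, with a median of 1.40, beside 0.0153% of all genes and a median of 0.00. Between the sets none of the 19 passed and the median was 0.23. MSX1, a homeobox factor, was at 76.0 CPM in complex 68 and 47.7 in complex 66, at 5.73 to 7.73 CPM in the other low-count libraries, at 0.20 to 8.49 CPM in the high-count set and at 0.51 to 2.82 CPM in BCB positive libraries. Its 2 highest libraries are those with the most oocyte-restricted transcripts, its median in oocytes was 1025 CPM, and the part of oocyte transcripts in its level was not tested. MYOG, a muscle transcription factor, was at 941 CPM in complex 68, 805 in complex 65 and 436 in complex 91. It was at 278 CPM in complex 66 and 215 in complex 6. MYOG ranged from 20.1 to 359 CPM in the high-count set and had a median of 1.49 CPM in oocytes. Its log2 fold change against BCB positive was 3.88 ± 0.55 (SE, FDR 0.000355) in the low-count set and 2.03 ± 0.54 (SE, FDR 0.115) in the high-count set.

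TFAP2A, a developmental transcription factor, was at 5.62 to 24.8 CPM in the low-count set, 0.65 to 9.02 CPM in the high-count set and 0.54 to 2.16 CPM in BCB positive libraries. SMAD6, an inhibitor of bone morphogenetic protein signalling, was the only member past the threshold among 7 tested SMAD and BMP genes of 23 (beside 1.45% of all genes higher and 0.0842% lower), at 122 to 185 CPM in the low-count set, 38.5 to 187 CPM in the high-count set and 13.7 to 68.4 CPM in BCB positive libraries. Its log2 fold change was 2.06 ± 0.35 (SE, FDR 0.00102) in the low-count set and 1.19 ± 0.35 (SE, FDR 0.137) in the high-count set. The 20 genes with the lowest p between the sets were chosen by that difference, which largely fixes that they stand further from BCB positive libraries in one set than in the other, so their values are given as a description. On the log2 scale against BCB positive libraries, CECR2 was at 1.91, ZBTB7A at 0.98, ZBTB7C at 2.93 and DEPDC7 at 2.74 in the low-count set, and at 0.20, -0.07, 0.83 and 0.08 in the high-count set. CYBC1 was at -1.43, LRP10 at -0.86 and EML3 at -1.50 in the low-count set, and at -0.13, -0.08 and -0.24 in the high-count set. ZP2 and ADAMTS12 had few or no counts in BCB positive libraries, at most 0.821 and 1.08 CPM, and their fitted folds depend on the prior count.

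**Figure D5:**
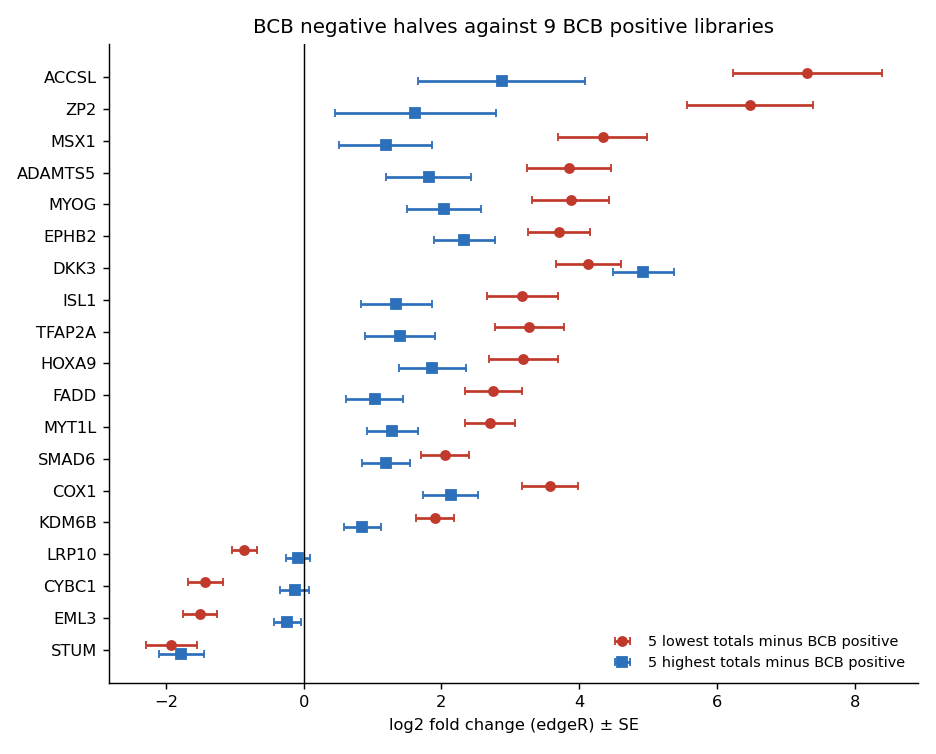
Log2 fold change ± SE by edgeR of the 5 low-count (red circles) and 5 high-count (blue squares) BCB negative cumulus libraries against the same 9 BCB positive libraries, for 19 genes, of which ACCSL, ADAMTS5, FADD, MYT1L, EPHB2, KDM6B and STUM were chosen after their values were seen. The fitted values of ACCSL and ZP2, which had few counts in BCB positive libraries, depend on the prior count. For DKK3 the estimates are 4.13 and 4.93, and for STUM, which fell in the low-count set, -1.92 and -1.77.

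The oocytes of the same complexes were compared by the sets of their cumulus libraries, a readout that the split did not use. No gene passed the threshold (0 of 12750 by edgeR, lowest FDR 0.0505), although 2547 genes, or 19.98%, had an unadjusted p under 0.05, and DESeq2 called 141, 53 of them higher and 88 lower in oocytes of the low-count set. With the run of complex numbers as a covariate 610 genes had an unadjusted p under 0.05. In simulated counts with 200 genes changed 4-fold, the same test recovered 95.5% of them in oocytes and 66.5% in the cumulus comparison. The simulation held no run effect and no unequal share of abundant transcripts. Its percentages therefore do not apply to smaller changes or to such effects.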

How the data were processed

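Per the sources used here, the authors trimmed paired-end reads, aligned them to ARS-UCD1.2 with HiSat2, discarded poor alignments and duplicate reads, and used featureCounts to count what remained per Ensembl gene (versions 2.1.0 and 1.6.0 in the submitters' processing notes). The deposited values are raw counts per gene, without normalization, for 27607 identifiers in each of 1 cumulus and 1 oocyte table. Symbols came from supplementary tables ranked by the BCB comparison and held in part, which name 4934 identifiers and 4450 of the 12184 tested, so members of lists without a symbol could not be followed.

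From these counts, genes with CPM above 2 in at least 5 libraries of a fit were tested with edgeR 4.0.16 in R 4.3.3 (TMM, robust quasi-likelihood test, FDR under 0.01). DESeq2 1.42.0 gave alternatives. Thinning drew counts without replacement to 1103200. Single library values were compared by exact permutation tests, two-sided. In simulated counts with 200 genes changed 4-fold, 66.5% were recovered with 3 false calls for the sets, 66.0% with 1 false call for the BCB positive slope and 95.5% with 4 in oocytes. These simulations held no run effect and no unequal share of abundant transcripts. Levels, overlaps and figures used Python 3.11.15.

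Genes were named by rule: with none past the threshold, the 10 genes with a symbol and the lowest p per direction, the 13 mitochondrially encoded genes, up to 4 members of a list past the threshold and the defining markers of cell types. ACCSL, ADAMTS5, FADD, MYT1L, EPHB2, KDM6B, STUM, HSPA1A, DNAJB1, ANXA1, TMSB10 and BAMBI were chosen after their values were seen. The split, the lists and the rule were chosen with earlier results of these data known. Alternatives covered scaling, filters, thresholds, the run of complex numbers, thinning and leaving out each library. Intervals and limits for 0 counts cover counting error only.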

Additional observations from a re-analysis of the deposited data

Results flagged for a closer look

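Samples far from the other 4 of their set by Dixon's test (ratio above 0.71) were looked for in 80 sets of 5 values, of which chance flags about 1 in 20. In the low-count set, HOXC9 was at 51.1 CPM in complex 66 with the next at 19.8, DEPDC7 at 33.1 CPM in complex 68 with the next at 10.1, ZBTB7A at 147 CPM in complex 68 with the next at 89.4, and CECR2 at 5.16 CPM in complex 65 with the next at 33.1. In the high-count set, complex 86 stood apart with 15837 genes detected after thinning to an equal total (next 15014), ZP2 at 2.65 CPM (next 0.657), ZBTB7C at 19.6 CPM (next 6.48) and ND2 at 16129 CPM (next 4896). Complex 86 has the lowest total of the high-count set, and the 13 mitochondrial genes with the 2 most abundant identifiers take 32.6% of its counts, against 4.57% to 18.8% in the other 4. SLC36A4 was at 98.6 CPM in complex 87 (next 38.4) and EML3 at 13.7 CPM in complex 89 (next 11.3).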

How the results depend on the processing

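The count of 0 genes between the sets became 8 with DESeq2, 42 with log10 total in place of the split and 2 with the run of complex numbers as a covariate, and it stayed 0 under the other alternatives, leaving out each library included (lowest 0, highest 0). In BCB positive libraries the 0 became 16 with DESeq2, and in oocytes 141 with DESeq2. Against BCB positive libraries, the 200 calls of the low-count set became 470 with DESeq2, 128 in complexes 65 to 74 alone, 4243 with library totals alone and 572 at an FDR of 0.05. Leaving out each low-count library gave 153 to 242. The 2 calls of the high-count set became 84 with DESeq2 and 9 at an FDR of 0.05, and 2 to 4 without each high-count library, 4 of them without complex 88, where ANXA1 and TMSB10 were added. The causes were not tested.

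Of the values of the 33 named and mitochondrial genes under alternatives, 687 kept their direction and stayed short of the threshold, 8 passed it (2 with DESeq2 and 6 with the continuous total) and 0 changed sign. ZP2, which entered the test through the libraries in which it was high, accounts for 1 of the 2 and 1 of the 6. ADAMTS12, another of the 6, likewise entered through such libraries, as it did not stay above 2 CPM before TMM scaling in all 10. The named genes were chosen by low p in these same libraries, which the alternatives reuse, so kept directions were largely fixed by that choice. Library values passed or lost an unadjusted exact permutation p of 0.05 as follows. The mitochondrial difference was 7.21 points without complex 66 and 7.51 without complex 86, both past it, in a range of 4.50 to 7.51. Genes detected differed by 1256 without complex 65, past it (range 502.5, without complex 68, to 1256). The oocyte markers differed by 36.5 CPM without complex 65 and 37.4 without complex 6, both past it (range 18.6, without complex 66, to 37.4). With TMM scaling the oocyte markers differed by 44.2 CPM, also past it. Within complexes 86 to 91 the 1 low-count library allows no p below 0.167, so the abundant gene share (16.7 points) and the ribosomal share (-0.771 points) lose theirs by design; there the mitochondrial difference was 8.32 points, that of genes detected 675 and that of oocyte markers 5.82 CPM. Outside the mitochondrial genes and abundant identifiers the ribosomal share (-0.249 points, exact permutation p = 0.103) and the abundant gene share (1.28 points, exact permutation p = 0.111) lost their calls. No paired analysis was possible because the sets hold different complexes. Genes with few counts in the smaller libraries are measured least precisely. The fits on complexes 65 to 74 and 69 to 74, the leave-outs against BCB positive libraries, the test of slopes the shares outside abundant identifiers and the TMM-scaled markers were chosen after seeing the data.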

Other observations

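Several genes of cumulus identity and signalling varied widely among the 10 BCB negative libraries within both sets. They were chosen after their values were seen and are given without a test. INHBA, a subunit of activin and inhibin, was lowest in complexes 6 (81.6 CPM), 89 (161 CPM) and 87 (527 CPM) and ran from 2282 to 4717 CPM in the rest. INHA, the inhibin alpha subunit, was at 345 CPM in complex 6, 785 CPM in complex 89 and 1900 CPM in complex 87, and at 2593 to 4325 CPM in the rest. CYP19A1 was at 6.45, 10.9 and 33.5 CPM in complexes 6, 89 and 87, and at 88.7 to 174 CPM in the rest. GSTA1, a glutathione transferase, was lowest in complexes 6 (582 CPM) and 89 (993 CPM). BAMBI, a pseudoreceptor that dampens signalling of the transforming growth factor beta family, was highest in complexes 89 (95.4 CPM) and 6 (85.2 CPM) and ran from 1.72 to 11.9 CPM in the rest. GJA1, a gap junction protein, was lowest in complex 6 (363 CPM) but at 909 CPM in complex 89, within the 572 to 1176 CPM of the rest.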
